A study of Mus musculus with 2 samples.

Results

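The genes described here license and open origins of DNA replication, and they were read for peaks of the SWI/SNF subunit Arid1b in dental mesenchyme. The list held 10 genes, namely Mcm2, Mcm3, Mcm4, Mcm5, Mcm6, Mcm7, Mcm10, Cdc6, Cdt1 and Gins2, of 21883 protein-coding genes in the RefSeq table of mouse build GRCm38.p6, the assembly that mm10 names. A peak was assigned to a gene when any part of it lay inside the gene or no more than 10 kb outside it. By this rule 14 of the 8318 listed Arid1b peaks belonged to 8 of the 10 genes. The genes were listed by name, with earlier results of these data known.

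Before S phase the origin recognition complex, Cdc6 and Cdt1 load the Mcm2 to Mcm7 ring onto DNA, which is called licensing. The loaded ring is an inactive helicase. It is switched on in S phase when Cdc45 and the GINS complex, of which Gins2 is a subunit, join it and Mcm10 acts on it. Cells that leave the cell cycle lower the transcription of these genes, many of which are textbook targets of E2F factors and the retinoblastoma family. Arid1b is a large DNA-binding subunit of BAF, a SWI/SNF complex that slides and evicts nucleosomes at promoters and enhancers.

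Arid1b was profiled by chromatin immunoprecipitation with sequencing (ChIP-seq) in 1 library, against 1 library of input chromatin made without antibody. Both were made from cultured dental mesenchyme cells. These were primary cells of wild-type mice of the strain C57BL/6, isolated from the apical end of the lower first molars between postnatal days 3.5 and 7.5, and the culture medium held 10% fetal bovine serum. The series title and design name Arid1a and mice carrying Gli1-CreER and a floxed Arid1a allele, whereas the labels of both libraries name wild-type mice and, for the ChIP, an Arid1b antibody. No library of cells without Arid1a was analysed here, so the values describe where Arid1b signal lay in cultured wild-type cells. There was no replicate of either group, and hence no test between conditions.

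The deposited list reports the fold enrichment of each peak at its summit relative to input, and every fold below is that value of the authors. The range after a fold is the exact Poisson 95% interval of the summit pileup, the number of overlapping ChIP fragments, with the expected input level held fixed. It covers no more than counting error, and PCR copies of 1 molecule may be among the fragments. The total read number of the libraries is not given in the sources used here. Pileups at the peaks of the licensing genes were modest, between 29 and 58 fragments at the ends of the genes, against a median of 38 over all 8318 peaks. The labelled cell type was set beside the peaks, since no expression data were used here. Part of a peak lay within 1 kb of an end of 9 of 10 dental mesenchyme marker genes, 0 of 4 blood and immune genes and 0 of 4 endothelial genes, against 22.2% of all protein-coding genes. At that share a count of 0 of 4 says little about the cells, and dental epithelium was not covered by this comparison. The marker lists were chosen with earlier results of these data known, so the 9 of 10 is no independent check of the cell type.

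Arid1b peaks were listed at the promoter end of 7 licensing genes. In 7 of the 10 genes (70.0%) some part of a peak came within 1 kb of an annotated gene end, here called a boundary peak, against 22.2% of all protein-coding genes. These were Mcm3, Mcm4, Mcm5, Mcm6, Mcm7, Mcm10 and Cdt1. With peaks of a fold of at least 4 alone the count was 4 of 10, namely Mcm4, Mcm7, Mcm10 and Cdt1, against 10.5% of protein-coding genes. The same 4 genes remained with a -log10 q of at least 10, also against 10.5%, and 4 remained where the expected level was the genome background, against 11.0%. Mcm2 had peaks only farther away, and Cdc6 and Gins2 had none within 10 kb. Counted at start sites, 6 of the 8 licensing genes in the promoter table had a peak within 1 kb, against 23.9% of protein-coding genes in that table. Within 10 kb the count was 8 of 10 (80.0%), against 31.7% of all protein-coding genes. The strongest boundary peak per gene had a median fold of 4.34 over the 7 genes and of 3.92 over all 4856 protein-coding genes with one (quartiles 3.44 and 4.54). With 1 library per group, neither difference was tested.

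**Figure D1:**
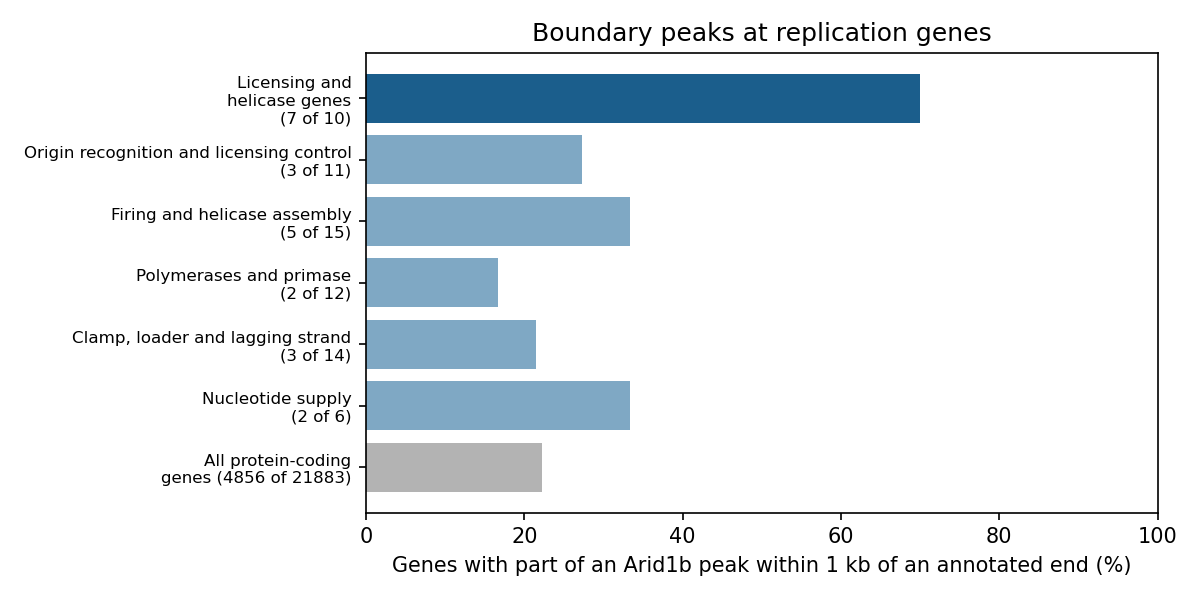
Percentage of genes with a boundary peak of Arid1b, within 1 kb of an annotated end (horizontal axis, from 0) for the licensing and helicase genes, 5 groups of other replication genes and all protein-coding genes, with counts in brackets. The licensing genes stand at 70.0%, the other groups between 16.7% and 33.3%, and all protein-coding genes at 22.2%.

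The promoters of the genes that the results turn on are shown first, because the peaks lie beside or just downstream of them. Each window is 250 bases before to 50 bases after a RefSeq start site of GRCm38.p6, written 5′ to 3′ on the strand of the gene. Capitals mark E2F sequences (TTTGGCGC, TTTCGCGC, TTTCCCGC or TTTGCCGC, on either strand) and CCAAT boxes, the core of NF-Y sites, on either strand. Cdc6 is shown as a licensing gene without a peak. Its only listed start, chr11:98908151, lies inside the annotated gene, which begins at chr11:98907709. The Cdc6 window therefore holds no sequence from before the annotated gene. The outer Mcm7 start also lies inside its annotated gene.
Mcm3, chr1:20820263-20820562, minus strand: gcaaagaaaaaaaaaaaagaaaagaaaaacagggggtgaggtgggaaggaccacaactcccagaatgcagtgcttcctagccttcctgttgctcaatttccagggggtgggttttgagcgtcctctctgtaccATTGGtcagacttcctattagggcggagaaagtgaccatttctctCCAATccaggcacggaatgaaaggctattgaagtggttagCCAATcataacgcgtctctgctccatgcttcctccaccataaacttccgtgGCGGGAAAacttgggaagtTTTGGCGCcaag
Mcm5, chr8:75109259-75109558, plus strand: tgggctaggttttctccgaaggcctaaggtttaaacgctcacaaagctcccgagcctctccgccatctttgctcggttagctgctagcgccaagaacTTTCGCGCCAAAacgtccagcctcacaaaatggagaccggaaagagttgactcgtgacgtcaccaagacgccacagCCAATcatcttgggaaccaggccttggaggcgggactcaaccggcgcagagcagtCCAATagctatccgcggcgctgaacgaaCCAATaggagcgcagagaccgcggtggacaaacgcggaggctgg
Mcm6, chr1:128359656-128359955, minus strand: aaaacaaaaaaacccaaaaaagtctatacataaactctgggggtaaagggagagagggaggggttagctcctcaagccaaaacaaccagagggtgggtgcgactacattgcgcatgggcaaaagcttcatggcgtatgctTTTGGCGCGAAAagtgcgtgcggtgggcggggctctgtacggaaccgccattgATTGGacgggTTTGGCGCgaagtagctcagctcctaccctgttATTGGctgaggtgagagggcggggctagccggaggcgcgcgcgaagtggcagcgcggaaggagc
Mcm7 outer start, chr5:138171834-138172133, minus strand: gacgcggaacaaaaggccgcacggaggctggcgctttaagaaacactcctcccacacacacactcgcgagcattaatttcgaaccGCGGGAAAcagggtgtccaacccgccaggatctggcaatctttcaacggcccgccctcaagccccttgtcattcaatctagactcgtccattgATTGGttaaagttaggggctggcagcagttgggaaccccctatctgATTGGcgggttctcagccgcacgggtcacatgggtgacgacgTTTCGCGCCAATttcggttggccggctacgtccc
Mcm7 inner start, chr5:138171217-138171516, minus strand: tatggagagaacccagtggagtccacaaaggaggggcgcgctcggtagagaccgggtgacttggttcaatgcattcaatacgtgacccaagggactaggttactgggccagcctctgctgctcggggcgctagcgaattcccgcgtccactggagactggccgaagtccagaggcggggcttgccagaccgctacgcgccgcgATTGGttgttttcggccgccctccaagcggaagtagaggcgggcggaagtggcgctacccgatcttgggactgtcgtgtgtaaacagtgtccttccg
Mcm10, chr2:5012742-5013041, minus strand: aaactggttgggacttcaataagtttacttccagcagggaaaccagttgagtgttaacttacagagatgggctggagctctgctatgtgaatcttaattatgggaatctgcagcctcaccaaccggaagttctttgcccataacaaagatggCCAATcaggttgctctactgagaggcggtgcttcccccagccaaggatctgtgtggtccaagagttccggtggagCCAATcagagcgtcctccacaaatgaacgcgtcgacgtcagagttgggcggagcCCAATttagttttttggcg
Cdt1, chr8:122567765-122568064, plus strand: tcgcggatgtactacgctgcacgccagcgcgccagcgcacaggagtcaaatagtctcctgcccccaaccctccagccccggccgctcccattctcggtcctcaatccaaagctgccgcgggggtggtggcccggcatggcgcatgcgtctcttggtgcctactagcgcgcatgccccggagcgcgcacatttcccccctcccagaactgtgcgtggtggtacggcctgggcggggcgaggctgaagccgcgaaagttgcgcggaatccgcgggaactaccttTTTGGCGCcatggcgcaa
Cdc6, chr11:98907901-98908200, plus strand: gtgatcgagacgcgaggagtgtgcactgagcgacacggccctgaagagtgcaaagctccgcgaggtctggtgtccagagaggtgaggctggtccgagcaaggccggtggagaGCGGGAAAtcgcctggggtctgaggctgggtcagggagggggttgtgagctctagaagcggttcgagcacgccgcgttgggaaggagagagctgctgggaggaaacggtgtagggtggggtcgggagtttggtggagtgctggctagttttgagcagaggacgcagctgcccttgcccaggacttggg

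E2F sequences and CCAAT boxes recurred in the promoter windows of the licensing genes. Both were held in 1 window by 4 genes (Mcm3, Mcm5, Mcm6 and Mcm7), against 1.23% of all windows. An E2F sequence was present in 6 of the 9 windows of the 8 licensing genes in the promoter table, belonging to 6 genes (Mcm3, Mcm5, Mcm6, Mcm7, Cdt1 and Cdc6), against 2.85% of all 21262 protein-coding windows. Mcm3, Mcm5, Mcm6 and Mcm7 each held at least 2 such sequences in 1 window, against 0.141% of windows, where matches that overlap were counted separately. At Mcm5 the first and last bases of the overlapping matches ran from -153 to -142, counting from 0 at the start site. Mcm6 had an overlapping pair from -110 to -99 and another match from -47 to -40. The Mcm7 matches were both in the outer window, and the inner window, which lies nearer to the peak with the higher fold, held none. The Mcm3 matches lay just after the start, at 19 to 26 and 38 to 45, and so did that of Cdt1 at 32 to 39.

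CCAAT was found in 7 of the 9 windows, against 38.2% of all windows. Mcm3, Mcm5, Mcm7 and Mcm10 had 3 CCAAT boxes in 1 window, and 3.92% of all windows had as many or more. Mcm10 and Mcm2 held CCAAT but no whole E2F sequence in these windows, whereas Cdt1 and Cdc6 held an E2F sequence but no CCAAT. For Cdc6 the sequence before the annotated gene was not read. A GC box, the Sp factor core GGGCGG, was present in 7 of the 9 windows, against 46.2% of all windows. Each of the other motifs was in at most 1 of the 9 windows. TTTGAA, the cell cycle homology region, was in the Mcm2 window only (16.0% of all windows), the ETS core CCGGAAG in that of Mcm10 only (11.6%) and the CRE TGACGTCA in that of Mcm5 only (2.23%). The AP-1 sequence TGANTCA was in none of the 9 (6.99% of all windows). Counts this small say little beside these shares.

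E2F sequence and peak did not always go together within the list. Cdc6 held one without a peak, and Mcm10 had a peak without a whole one in its window. The Mcm10 window ends in TTTGGCG, all but the last letter of TTTGGCGC, so a match across its edge could not be read. Over all windows, those with a peak within 1 kb of the start held an E2F sequence in 4.50% of cases and those without in 2.35%. Windows with a peak were also richer in G and C, with medians of 64.3% and 53.7%, and the GC box was present in 73.1% of windows with a peak and 38.0% of those without. The E2F letters are themselves rich in G and C, and the part of base composition in this difference was not tested. The 9 licensing windows had a median GC content of 57.3% and a median ratio of observed to expected CpG of 0.935, against 56.3% and 0.567 over all windows. Windows with a peak had a median CpG ratio of 0.839, and the licensing windows were lowest at Mcm3, at 0.452, and highest at Mcm5. A match is a run of letters and not a measured binding site.

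Among the ring genes Mcm4 had the strongest peak. Mcm4, at chr16:15623897-15637400, encodes a ring subunit, and its high-coordinate end lies 44 bp from the near end of Prkdc, the gene of the DNA repair kinase DNA-PKcs, with which it is known to form a divergent pair. A peak at chr16:15637431-15637802 overlapped that end of Prkdc and reached a fold of 6.09 (4.65 to 7.85), at percentile 96.6 of all listed peaks. Its summit lay 174 bp inside Prkdc. The other peak of the locus, at chr16:15637088-15637329, had a fold of 4.54 (3.32 to 6.08) and its summit 209 bp inside Mcm4. The 102 bp between the peaks hold the end of Mcm4, so each gene had a summit on its own side, and the higher fold was on the side of Prkdc. Both lie within 1 kb of both genes and cannot be given to either from these data.

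Mcm7 was next. Mcm7, at chr5:138164583-138172111, also encodes a ring subunit. Its outermost listed start, at chr5:138171883, faces that of Ap4m1, a gene for a subunit of an adaptor complex of vesicle traffic. These listed starts are 138 bp apart, but the annotated Mcm7 gene reaches 90 bp past the near end of Ap4m1. The boundary peak with the higher fold, at chr5:138171022-138171257, had a fold of 5.47 (4.11 to 7.15), and the other, at chr5:138171515-138171743, a fold of 3.30 (2.28 to 4.65). RefSeq lists a further Mcm7 start 617 bp downstream of the outermost listed one. The summit of the peak with the higher fold lay 732 bp into Mcm7 from the outermost listed start and 115 bp from the inner start. The other summit lay 317 bp into Mcm7 from the outermost listed start. From the annotated gene end the summits lay 960 and 545 bp inside Mcm7. Both peaks also lay within 1 kb of the Ap4m1 start, with summits 870 and 455 bp from it, but on the Mcm7 side. No peak lay between the facing listed starts.

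**Figure D2:**
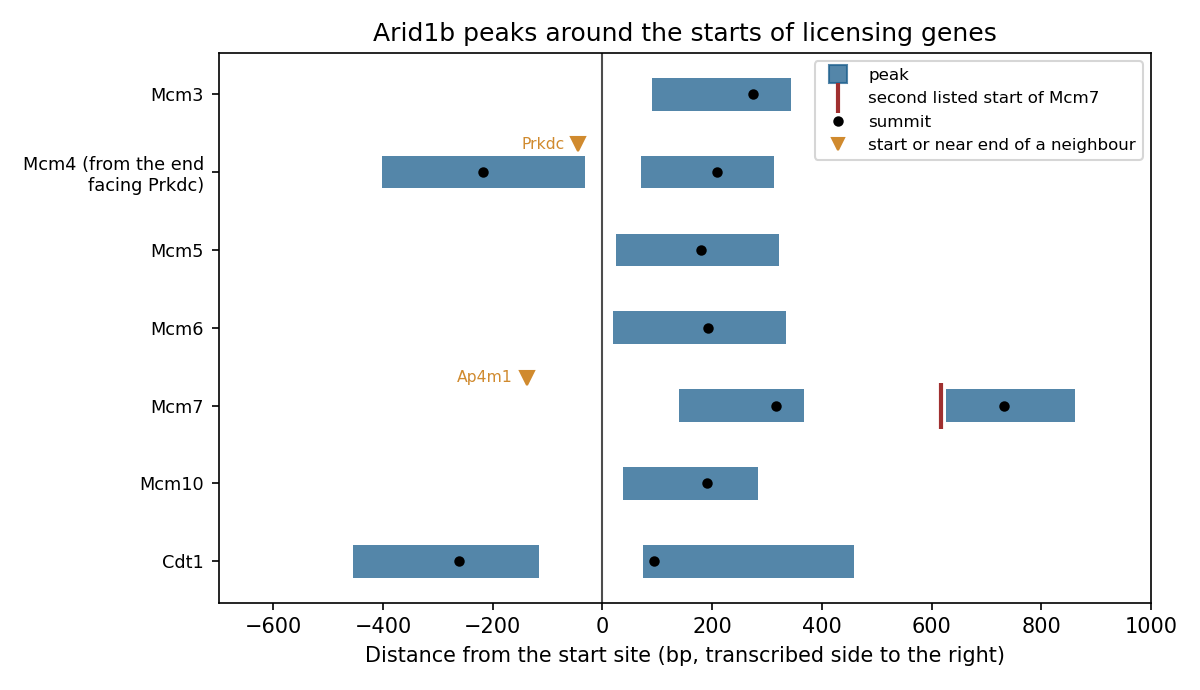
Position of each boundary peak (bars) and its summit (dots) in bp from the start site, with the transcribed side to the right, for the 7 licensing genes with such a peak. Mcm4 is drawn from its end facing Prkdc, Mcm7 from its outermost listed start, and triangles mark the start or near end of a divergent neighbour. Peaks flank the drawn position at Mcm4 and Cdt1 and lie downstream of it at the others.

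The other ring genes had 1 boundary peak each, all just inside the gene. At Mcm5, which starts at chr8:75109509, the peak at chr8:75109533-75109831 had a fold of 3.82 (2.71 to 5.25) and its summit at 179 bp downstream. At Mcm6, the peak at chr1:128359371-128359685 had a fold of 3.54 (2.58 to 4.74) and its summit at 192 bp. At Mcm3, the peak at chr1:20819968-20820221 had the lowest fold of the ring genes with a boundary peak, 3.13 (2.30 to 4.16), with its summit at 274 bp. The Mcm3 peak nonetheless had 45 fragments at its summit, more than the 36 at Mcm5. Its expected input level was 13.7, against the genome background of 8.68 that applied at Mcm5, so the low fold goes with a raised local input. No other gene had an end within 1 kb of these 3 peaks.

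Mcm2 was the ring gene without a boundary peak. It encodes the subunit whose tail also binds histones, and its start at chr6:88898780 lies 3471 bp from that of Tpra1, a divergent neighbour that encodes a membrane protein. The peaks assigned to Mcm2 lay on either side of the Tpra1 start. That at chr6:88902368-88902658 had a fold of 4.54 (3.32 to 6.08) and its summit 222 bp into Tpra1. That at chr6:88901880-88902113 had a fold of 2.79 (1.86 to 4.04), the lowest of the 14, and lay 3100 bp from Mcm2. Assigned by the nearest gene end, both belong to Tpra1.

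Of the loaders, Cdt1 had peaks and Cdc6 did not. Cdt1, which brings the ring to the origin and is restrained by geminin, starts at chr8:122568015. A peak upstream of the start, at chr8:122567561-122567900, had a fold of 4.46 (3.34 to 5.83), with its summit 261 bp before the start. A peak with a lower fold, at chr8:122568089-122568474, had a fold of 2.96 (2.01 to 4.20), with its summit 94 bp after it. Among the licensing genes with a start in the promoter table, Cdt1 was the only one whose strongest boundary peak had its summit upstream of the nearest start. Mcm4 has no start there, and the summit of its strongest boundary peak also lay outside the gene, 218 bp beyond the end facing Prkdc. Cdc6, the ATPase that works with the origin recognition complex, lies at chr11:98907709-98923942. The peak nearest to it was 13850 bp away, inside Rara, a retinoic acid receptor gene, with a fold of 3.48 (2.48 to 4.77). That peak, at chr11:98937792-98938270, lay just downstream of a listed Rara start at chr11:98937696.

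Of the genes that act on the loaded ring, Mcm10 had a peak and Gins2 had none. The Mcm10 peak at chr2:5012508-5012753 had a fold of 4.34 (3.14 to 5.85) and its summit 191 bp downstream of the start. Gins2, at chr8:120581266-120589075, overlaps the end of Gse1, a gene for a coiled-coil protein. The peak nearest to Gins2 lay 16506 bp away, inside Gse1, with a fold of 3.44 (2.43 to 4.75). Both nearest peaks lay outside the 10 kb rule, and the farthest peak inside it was that at Zfp113, 8917 bp from Mcm7. An absent peak means that none passed the authors' threshold at this depth, not that Arid1b was absent.

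**Figure D3:**
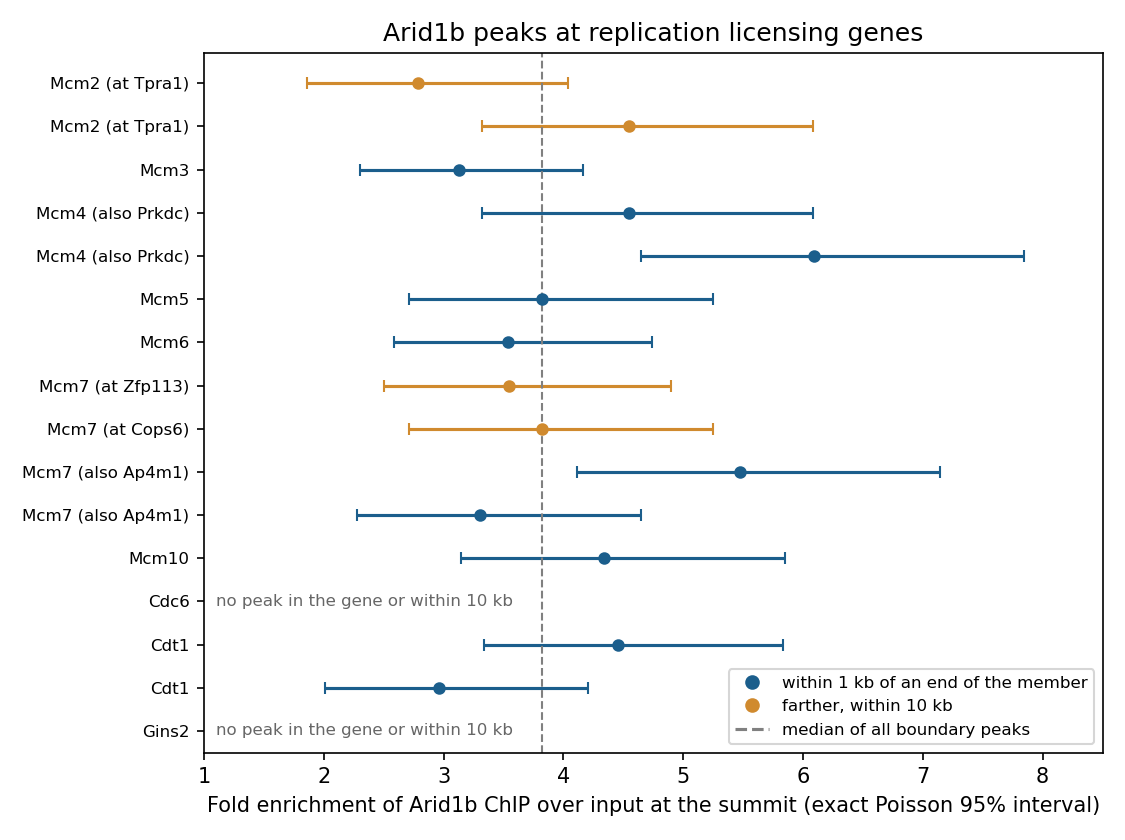
Fold enrichment of the ChIP over input at the summit for all 14 peaks assigned to licensing genes (points) with exact Poisson 95% intervals (bars), in genome order within each gene. The dashed line is the median of all boundary peaks, 3.82, and the strongest Mcm4 and Mcm7 peaks lie wholly above it.

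Depth limits how far these genes can be ranked. By strongest boundary peak the order was Mcm4, Mcm7, Cdt1, Mcm10, Mcm5, Mcm6 and Mcm3. Among the 21 pairs of the 7 genes, the fold intervals overlapped in 20, and only those of Mcm4 and Mcm3 were apart. Of the 10 boundary peaks, 8 had an interval that included 3.82, the median fold of all 5272 boundary peaks. The exceptions were the strongest peaks of Mcm4 and Mcm7, both at loci shared with a divergent neighbour. The expected level was the genome background at 6 of the 10 peaks, those of Mcm4, Mcm5, Mcm7 and Mcm10, and raised to between 9.15 and 13.7 at those of Mcm3, Mcm6 and Cdt1. Over all boundary peaks 44.4% were at background.

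Summits kept a similar place relative to the start. At Mcm3, Mcm5, Mcm6 and Mcm10 they lay between 179 and 274 bp downstream. This is the usual place in the list, where 74.7% of the 4641 summits within 1 kb of a protein-coding start lay downstream of it, with a median of 191 bp and quartiles of -8 and 329 bp. Of the 8 boundary peaks at licensing genes with a start in the promoter table, 6 had the summit downstream of the nearest start. The exceptions were the upstream Cdt1 peak and the Mcm7 peak with the lower fold, which lay 300 bp before the inner Mcm7 start. The peaks were narrow, between 229 and 386 bp, with a median width of 276.5 bp against 315 bp over all boundary peaks. The printed windows therefore hold little of the peaks: 136 bases at Cdt1, 30 at Mcm6, 26 at Mcm5, 43 at the inner Mcm7 start, 12 at Mcm10 and 0 at Mcm3 and at the outer Mcm7 start.

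**Figure D4:**
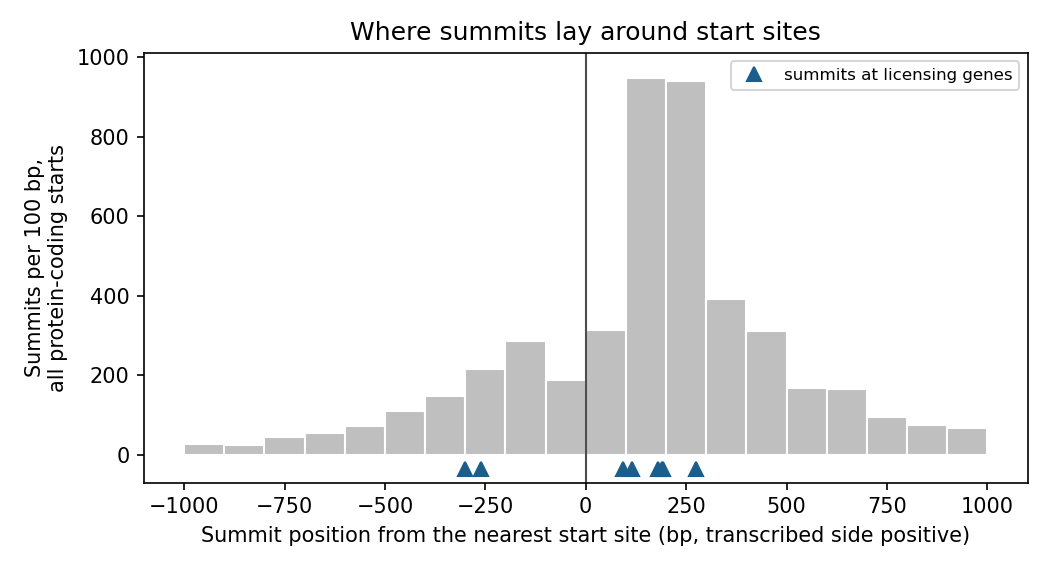
Number of peak summits per 100 bp (bars) by position from the nearest protein-coding start site, with the transcribed side positive, over 4641 summits. Triangles under the axis mark the 8 summits at licensing genes with a start in the promoter table, most of them on the transcribed side near the mode, with 2 upstream (Cdt1 at -261 bp and Mcm7 at -300 bp from its inner start).

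More than 1 peak within 1 kb of the same gene end was found at 3 of the 7 genes with a boundary peak (42.9%), against 19.6% of all protein-coding genes with one. As shares of all genes these were 3 of 10 licensing genes and 4.34% of protein-coding genes. The summits of a pair were 427 bp apart at Mcm4, 415 bp at Mcm7 and 355 bp at Cdt1. Within each pair the fold intervals overlapped, and the difference within a pair was not tested. The strongest boundary peak was shared with an end of another protein-coding gene at 2 of the 7 (28.6%), Mcm4 and Mcm7, close to the 29.7% of all protein-coding genes with a boundary peak.

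The other 4 assigned peaks all lay at ends of neighbours. Besides those at Tpra1, a peak at chr5:138161092-138161307 overlapped the start of Cops6, a COP9 signalosome subunit gene that ends 599 bp from Mcm7, with a fold of 3.82 (2.71 to 5.25). A peak at chr5:138155432-138155666 had its summit 226 bp into Zfp113, a zinc-finger gene, and a fold of 3.55 (2.50 to 4.90). Mcm7 thus had 4 of the 14 peaks, in a gene-dense stretch.

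Mcm7 also hosts the Mir106b, Mir93 and Mir25 hairpins, a cluster known to be made from the Mcm7 transcript and to target cell cycle inhibitors. The hairpins lie at chr5:138165321-138165818, and no mature sequence had a peak nearer than 4025 bp. The peak at that distance was the one at the Cops6 start, and those at the Mcm7 start lay farther away. A mature arm of each is shown from RefSeq with the seed, bases 2 to 8, in capitals, because the peaks at the Mcm7 start are also those at the start of their host transcript. The arms of miR-106b and miR-93 share the seed AAAGUGC, and miR-25-3p has AUUGCAC.
mmu-miR-106b-5p: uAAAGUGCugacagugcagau
mmu-miR-93-5p: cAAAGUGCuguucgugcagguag
mmu-miR-25-3p: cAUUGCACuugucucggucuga

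Other replication genes had boundary peaks at about the frequency of all genes. Of 58 genes in 5 groups, 15 (25.9%) had one, against 22.2% of protein-coding genes, and 22 (37.9%) had one at up to 10 kb, against 31.7%. The strongest boundary peak per gene had a median fold of 4.03 over these 15. No gene of the 58 had more than 1 boundary peak. The difference in frequency between the licensing genes and this list was not tested.

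In origin recognition and licensing control, 3 of 11 genes had a boundary peak, namely Orc6 (4.03, 2.88 to 5.49), shared with Vps35, the Mcm-binding protein gene Mcmbp (3.60, 2.61 to 4.85) and Orc2 (2.51, 1.76 to 3.48, shared with Gm15834). Orc1, Orc3, Orc4 and Orc5, the geminin gene Gmnn and the Mcm paralogues Mcm8 and Mcm9 had none. In firing and helicase assembly, 5 of 15 had one, with Recql4, a helicase that aids firing, highest (4.58, 3.37 to 6.10, shared with Lrrc14). The GINS subunit gene Gins3 followed (4.03, 2.88 to 5.49), and then Dbf4, the activator of the Cdc7 kinase (3.92, 2.79 to 5.37, shared with Slc25a40). Cdc45, Gins1 and Gins4 had none, so Gins3 was the only GINS gene of the 4 with a boundary peak.

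Of the genes of the elongation machinery, 5 of 26 had an Arid1b boundary peak, against 22.2% of all protein-coding genes. Among polymerases and primase 2 of 12 had a boundary peak, Pole4 (4.34, 3.14 to 5.85) and Pole (3.38, 2.45 to 4.55, shared with Pxmp2), both for subunits of the leading-strand polymerase epsilon. Among clamp, clamp loader and lagging-strand genes 3 of 14 had one. These were the clamp gene Pcna (4.23, 3.05 to 5.73, shared with Cds2) and the clamp loader genes Rfc5 (4.13, 2.97 to 5.61, shared with Gm15728) and Rfc4 (3.82, 2.71 to 5.25). In nucleotide supply 2 of 6 had one, the dUTPase gene Dut (4.43, 3.48 to 5.58) and the ribonucleotide reductase gene Rrm1 (4.23, 3.05 to 5.73). The highest fold among the other replication genes, 4.58 at Recql4, was below those of Mcm4 and Mcm7, with intervals that overlapped. It was above the strongest boundary folds of Cdt1 (4.46), Mcm10 (4.34), Mcm5, Mcm6 and Mcm3, also with overlapping intervals.

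E2F sequences were also counted at the other replication genes. They were present in a promoter window of 14 of the 48 other replication genes in the promoter table (29.2%). Of those 14, 4 also had a peak within 1 kb of that start. The share over all protein-coding windows was 2.85%, which counts windows and not genes. A share per gene over all protein-coding genes was not counted. Again per window, 36.7% of all protein-coding windows with an E2F sequence had a peak within 1 kb of the start, against 23.3% of all windows.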

How the data were processed

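The labels give 1 ChIP library and 1 input library, and the deposited file is a peak list of the ChIP over the input. Per the submitters' processing notes the tools were MACS2 2.1.1, Bowtie2 2.2.5, FastQC 0.11.8 and Picard, with mm10 as the build, but no role or parameter is stated. The deposited values are, per peak, a fold enrichment (a linear ratio to the expected input level), the -log10 of a p-value and of a q-value, and a score equal to 10 times the -log10 p-value without decimals in 100% of peaks, which was not used. The lowest deposited -log10 q was 2.27.

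Pileup and expected level were solved from fold and p, assuming that MACS2 adds 1 to both and takes a Poisson p. Whole pileups fitted within 0.001 in 100% of peaks, and all 1000 simulated peaks were recovered. Intervals are exact Poisson at 95%. Gene ends came from RefSeq GRCm38.p6, and start sites, strand and promoters from its promoter table, which held 8 of the 10 genes and 17491 of the 21883 protein-coding genes. A motif was counted on both strands. Coordinates are 1-based. Python 3.11.15, NumPy 2.4.6, pandas 2.3.3 and SciPy 1.17.1 were used.

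The genes and lists were chosen with earlier results of these data known. Named were all 10 genes, every gene sharing a boundary peak with one, and the 3 highest boundary folds in each of the 5 other groups. Genes named as lacking a peak, Cops6, Zfp113, Tpra1, Rara and Gse1 were named after their values were seen. The list of dental epithelium markers is not reported here. Stricter thresholds, other windows, summits in place of whole peaks and start sites in place of ends were tried as alternatives.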

Additional observations from a re-analysis of the deposited data

How the results depend on the processing

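Of 57 recomputed values of 8 results, 42 moved by no more than 1.5 times or stayed within the counting interval. The number of genes with a boundary peak stayed at 7 with windows of 500 bp and 2 kb, with summits and with -log10 q of at least 5, and was 6 at start sites only, where Mcm4 and Gins2 had no entry. With -log10 q of at least 10 it was 4 licensing genes, 6 other replication genes and 2308 protein-coding genes (10.5%), and 5 licensing genes had 6 peaks within 10 kb, where 16.0% of protein-coding genes had one. With a fold of at least 4 these counts were 4, 8, 2301 (10.5%), 5 and 6, with 16.0% of protein-coding genes within 10 kb. With the expected level at the genome background they were 4, 8, 2401 (11.0%), 5 and 9, with 17.4% within 10 kb. The 4 were Mcm4, Mcm7, Mcm10 and Cdt1 under both thresholds, and Mcm4, Mcm5, Mcm7 and Mcm10 at background. Within 25 kb all 10 genes had a peak, as had 39.2% of protein-coding genes. E2F sequences of 7 letters, an alternative chosen after seeing the data, were found at the same number of licensing genes, 6, but in 12.1% of all windows. Motifs under the peaks themselves were planned and not run, for want of a genome sequence in this work. No paired analysis was possible because each group has 1 library. Pileups of 29 to 58 fragments limit the ranking of the genes.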
